A study of Mus musculus with 10 samples.

Results

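Mpo, Elane, Prtn3 and Ctsg encode the 4 major enzymes of the primary (azurophil) granule of neutrophils, and are described here as 4 of the 24015 genes in a table of read counts from MAF9 cells. They were picked by their symbols, each symbol matched 1 row, and the rule itself uses no measured value, although earlier results of these data were known when the genes were chosen. MAF9 cells are C57BL/6 mouse bone marrow cells transduced with the leukemic fusion gene MLL-AF9 and kept growing with interleukin-3 (10 ng/ml) in serum-containing medium (15%). All groups carried the fusion gene, and they were treated for 4 days with DMSO alone or with 1 of 4 inhibitors, each at its own IC50 dose by the labels. MM-401 blocks the binding of MLL1 to WDR5, EPZ5676 inhibits the histone methyltransferase DOT1L, and MI-2-2 blocks MENIN. The remaining compound is called iBET, as in the labels. There were 2 libraries per group, labelled as biological duplicates, and 10 in all. The model is a transduced marrow culture, with no untransduced cells among the libraries. Because RNA was taken from bulk cultures, fewer cells that make an enzyme and less RNA per cell cannot be told apart.

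Primary granules are made at the promyelocyte stage, and transcription of their enzymes normally stops as the neutrophil matures and begins to fill its secondary granules. Myeloperoxidase (Mpo) is a haem enzyme that makes hypochlorous acid from hydrogen peroxide, while neutrophil elastase (Elane), proteinase 3 (Prtn3) and cathepsin G (Ctsg) are related serine proteases. The 3 proteases are made as inactive precursors, trimmed by cathepsin C, and packed in the granule on the proteoglycan serglycin.

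Prtn3 and Elane lie next to each other on chromosome 10, Mpo is on chromosome 11, and Ctsg lies on chromosome 14 between genes of mast cell proteases on one side and granzymes on the other. The bases just upstream of each gene are shown because Prtn3 and Elane, although neighbours, differed in their response to iBET below. They are RefSeq sequences in the build GRCm38.p6, written 5′ to 3′ on the strand of the gene, from the 250 bases before the RefSeq start and without the bases that another annotation places inside a transcript. Capitals mark AGGAAGT, the core bound by PU.1 and other ETS factors.
Prtn3, chr10:79879417-79879613, plus strand: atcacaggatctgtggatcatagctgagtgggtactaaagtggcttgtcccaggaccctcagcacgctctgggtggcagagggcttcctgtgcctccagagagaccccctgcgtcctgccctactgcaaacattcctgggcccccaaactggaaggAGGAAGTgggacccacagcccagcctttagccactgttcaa
Elane, chr10:79886062-79886246, plus strand: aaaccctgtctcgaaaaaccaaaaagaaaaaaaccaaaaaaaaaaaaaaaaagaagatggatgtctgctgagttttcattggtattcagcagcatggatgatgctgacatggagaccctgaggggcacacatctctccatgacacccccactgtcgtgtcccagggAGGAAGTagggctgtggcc
Mpo, chr11:87793534-87793580, plus strand: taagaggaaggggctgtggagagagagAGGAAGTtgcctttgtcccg
Ctsg, chr14:56102575-56102824, minus strand: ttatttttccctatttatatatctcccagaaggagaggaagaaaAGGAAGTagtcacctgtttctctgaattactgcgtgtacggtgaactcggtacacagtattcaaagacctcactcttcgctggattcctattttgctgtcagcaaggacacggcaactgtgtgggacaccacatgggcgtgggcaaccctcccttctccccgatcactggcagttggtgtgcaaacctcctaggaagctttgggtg
All 4 windows hold AGGAAGT on the strand of the gene, at 94 bases before the RefSeq start of Prtn3, 84 of Elane, 223 of Mpo and 206 of Ctsg. Searched on both strands, it is in 7.69% of 32851 RefSeq windows of the same length. The MYB core AACGG is in the windows of Prtn3 and Elane, at 55 and 50 bases before the start, and in 14.5% of all windows, and these 2 matches lie in or reach into the bases left out above. The RUNX core TGTGGT is in that of Ctsg alone, as ACCACA, and in 14.0% of all windows. TATAA is on the strand of the gene at 32 bases before the start of Prtn3 and 31 of Elane, again in or across the bases not printed. In the window of Ctsg it is on the other strand, as TTATA, at 236 bases. It is in 22.8% of all windows. The C/EBP motif TTGCNNAA, present in 9.56% of all, was in none of the 4 windows. These are letter matches, and no binding was measured in them.

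Library totals lay between 20394762 and 29473127 reads. DMSO replicate 2 stood apart from the other 9 libraries. It held 3630 reads on 4 Y-linked genes (Kdm5d, Uty, Ddx3y and Eif2s3y) against 0 to 2 elsewhere, and 4.65 CPM (reads scaled to a common library total) of Xist against 1026 to 2817. Among tested genes with a mean above a low floor in the group, the DMSO libraries differed more than 2-fold in 15.9%. The share was 1.44% to 4.34% within the inhibitor groups. The labels call the pair biological duplicates and do not say whether both came from the same donor or culture. Y-linked reads with little Xist are the pattern of male cells, and Xist with almost no Y-linked reads that of female cells. By these genes the DMSO pair differs in sex, so the DMSO means, SDs and fold changes span cells of different origin. By the same genes the inhibitor libraries match DMSO replicate 1. A comparison without DMSO replicate 1 thus also sets female-pattern against male-pattern cells, and treatment and origin cannot be told apart there. Every comparison with DMSO rests on the DMSO pair. Values without either DMSO library are therefore given for the 4 enzymes and for counts of called genes, where they change a call or a count. For single neighbours, list genes and markers no such values are given, so whether their calls hold without either DMSO library is not shown. Marker genes of some other lineages were near 0 in sum (eosinophil 0.0765 to 1.15, erythroid 0.377 to 2.01, B and T cell 0 to 1.22 CPM). Those of mast cells and basophils were low but present, at 7.52 to 22.2 CPM in sum. CPM here and below are on the TMM scale, which adjusts library totals for composition.

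The 4 enzymes together took 0.992% and 1.29% of all reads in the DMSO libraries and 1.05% and 1.06% with MM-401. Their share was 0.259% and 0.266% with EPZ5676, 0.230% and 0.159% with MI-2-2, and 0.638% and 0.549% with iBET. The iBET libraries thus stood between the DMSO or MM-401 libraries and those of EPZ5676 or MI-2-2, with no overlap. Behind that intermediate sum, iBET separated the 4 genes from each other, as the plot of levels per library shows.

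**Figure D1:**
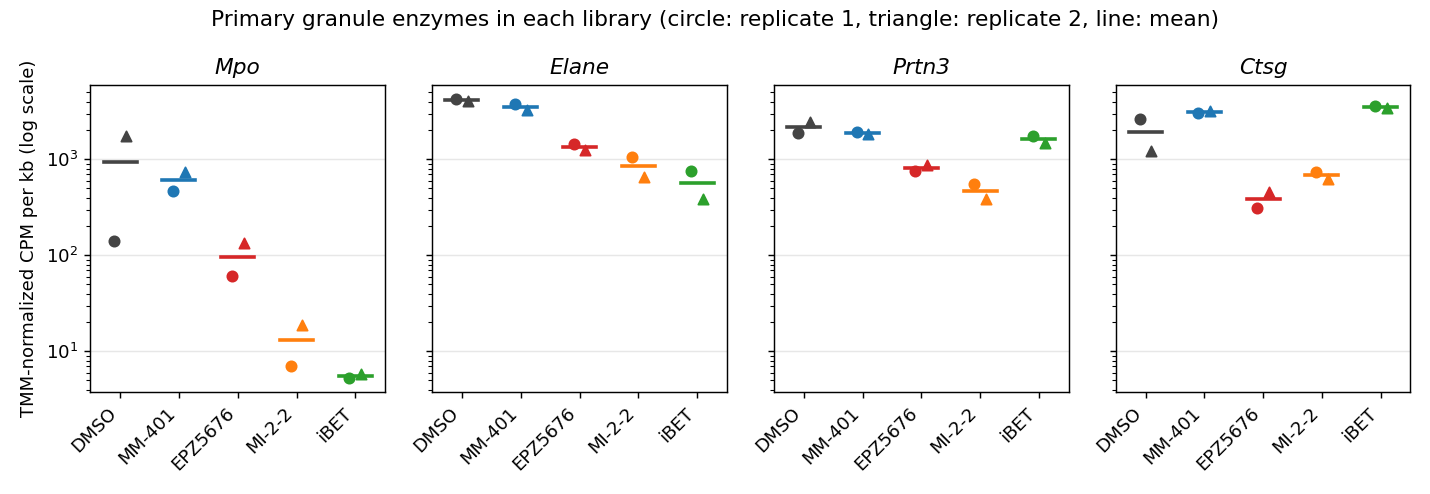
Level of each enzyme transcript in each of the 10 libraries, as TMM-normalized CPM per kilobase of transcript on a log axis, by treatment. Circles are replicate 1, triangles replicate 2 and lines the group mean. Mpo in DMSO spans 140 to 1751, while Elane, Prtn3 and Ctsg are closer together, and with iBET Ctsg is at the top of its range and Mpo at the bottom.

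Mpo had the widest range. It was at 386 and 4816 CPM in the DMSO libraries, 1286 and 2049 with MM-401, 167 and 367 with EPZ5676, 19.55 and 52.0 with MI-2-2, and 14.6 and 16.1 with iBET. In order of means the levels were 2601 ± 3133 (SD, n = 2) in DMSO, 1668 ± 539 with MM-401, 267 ± 142 with EPZ5676, then 35.8 ± 22.9 for MI-2-2 and 15.4 ± 1.1 for iBET. The DMSO libraries spanned the MM-401 libraries, and only a small gap lay between DMSO replicate 1 and the higher EPZ5676 library, while the MI-2-2 and iBET libraries lay below all others without overlapping each other. The DMSO libraries were 12.5-fold apart for Mpo, and 1.35% of the tested genes were further apart. For scale, Mpo had 9913 and 100486 reads in them, and between 330 and 1424 in the MI-2-2 and iBET libraries, so counting error was small beside the spread.

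Mpo fell 72.6-fold with MI-2-2 (log2 fold change -6.18 ± 1.20 SE, Benjamini-Hochberg adjusted p = 0.00563 in the quasi-likelihood test of edgeR) and 169-fold with iBET (-7.40 ± 1.27, adjusted p = 0.0114). With EPZ5676 it fell by 3.28 ± 1.04 on the log2 scale (adjusted p = 0.0398). With MM-401 the log2 fold change was -0.64 ± 0.96 (adjusted p = 0.850), with a 95% interval from -2.86 to 1.57. The size of every one of these differences turned on the 2 DMSO libraries. Without DMSO replicate 2 the log2 fold change of Mpo was -3.40 with MI-2-2 (adjusted p = 0.00447), -4.65 with iBET (0.00423), -0.51 with EPZ5676 (0.520) and 2.09 with MM-401 (0.142). Without DMSO replicate 1 it was -7.06, -8.29, -4.17 and -1.53 in the same order. The direction for MM-401 thus depended on which DMSO library was kept, and the EPZ5676 call was lost without DMSO replicate 2. Of the DMSO pair, replicate 1 is the library that shares the Xist and Y-linked pattern of the inhibitor libraries. The EPZ5676 call passed in only 1 of the 10 fits that left out 1 library each, and the iBET call was lost (adjusted p = 0.101 and 0.103) when either iBET library was left out.

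Elane was the steadiest of the 4 in DMSO. Its levels were 4194 and 4007 CPM there, 3673 and 3197 with MM-401, 1427 and 1222 with EPZ5676, 1039 and 643 with MI-2-2, and 747 and 376 with iBET. Both DMSO libraries were above both MM-401 libraries, these were above all EPZ5676, MI-2-2 and iBET libraries, and the MI-2-2 and iBET libraries overlapped. Elane fell by 1.63 ± 0.34 on the log2 scale with EPZ5676 (adjusted p = 0.00850), by 2.29 ± 0.35 with MI-2-2 (0.00232) and by 2.87 ± 0.36 with iBET (0.00477). These are 3.10-fold, 4.88-fold and 7.31-fold reductions of the fitted level. The difference with MM-401 was -0.26 ± 0.34 (adjusted p = 0.827, 95% interval -1.03 to 0.52). Leaving out either DMSO library moved none of the 4 Elane values by more than 0.05 on the log2 scale. The EPZ5676 call was lost (-1.52, adjusted p = 0.0635) without EPZ5676 replicate 2.

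Prtn3, the gene beside Elane, followed it with EPZ5676 and MI-2-2 but not with iBET. It was at 1941 and 2514 CPM in DMSO, 1978 and 1888 with MM-401, 767 and 895 with EPZ5676, 573 and 397 with MI-2-2, and 1812 and 1501 with iBET. The iBET libraries lay below those of DMSO and MM-401 and well above those of EPZ5676 and MI-2-2. Prtn3 fell by 1.42 ± 0.23 on the log2 scale with EPZ5676 (adjusted p = 0.00281) and by 2.20 ± 0.23 with MI-2-2 (0.000725), which is 2.68-fold and 4.595-fold. With iBET the log2 fold change was -0.43 ± 0.22 (adjusted p = 0.227), with a 95% interval from -0.94 to 0.09, and with MM-401 it was -0.20 ± 0.22 (adjusted p = 0.782, interval -0.72 to 0.31). Both calls passed in all 10 fits that left out 1 library.

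Ctsg was highest with iBET, where Mpo and Elane were lowest. It was at 2640 and 1225 CPM in DMSO, 3078 and 3182 with MM-401, 310 and 456 with EPZ5676, 737 and 624 with MI-2-2, and 3593 and 3444 with iBET. Both the iBET and the MM-401 libraries were above both DMSO libraries, which were 2.15-fold apart, and the EPZ5676 and MI-2-2 libraries were below them. Ctsg fell 5.05-fold with EPZ5676 (log2 fold change -2.33 ± 0.36, adjusted p = 0.00241) and 2.84-fold with MI-2-2 (-1.51 ± 0.35, adjusted p = 0.0108). With iBET the log2 fold change was 0.86 ± 0.34 (adjusted p = 0.126, 95% interval 0.08 to 1.65) and with MM-401 it was 0.70 ± 0.34 (adjusted p = 0.505, interval -0.09 to 1.48). Without DMSO replicate 2, where all libraries share the female pattern, the values were 0.41 for iBET and 0.23 for MM-401. Without DMSO replicate 1, where the sex pattern differs as well, they were 1.53 and 1.36. The fall with EPZ5676 was -1.68 (adjusted p = 0.000807) without DMSO replicate 1 and -2.76 (0.000420) without DMSO replicate 2. The MI-2-2 call held at -0.84 without DMSO replicate 1 (adjusted p = 0.0153) and at -1.92 without DMSO replicate 2 (0.00115), and was lost at -1.39 without MI-2-2 replicate 2 (0.0774).

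**Figure D2:**
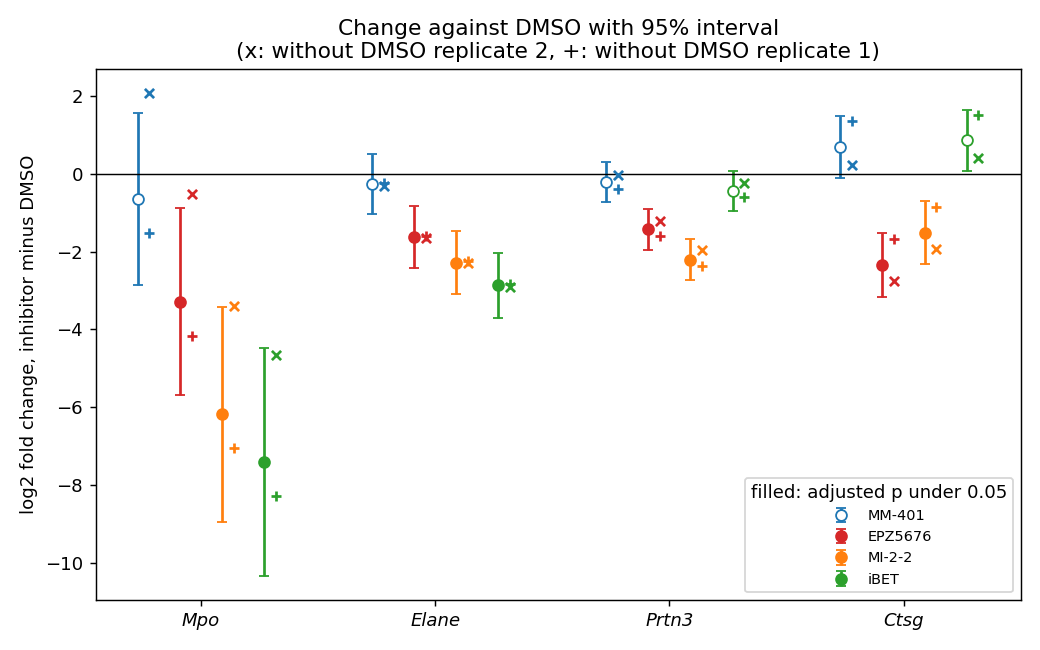
Log2 fold change of each enzyme transcript against DMSO for the 4 inhibitors, with 95% intervals from the fit of all 10 libraries, filled where the adjusted p was under 0.05. Crosses and plus signs are the values without DMSO replicate 2 and without DMSO replicate 1, which sit far apart for Mpo (2.09 and -1.53 with MM-401), on top of each other for Elane, and on either side of the estimate for Ctsg.

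Counted together, 4 of the 4 enzymes fell with EPZ5676, where 38.1% of the 12971 tested genes passed the test (19.4% lower and 18.7% higher). With MI-2-2, 4 of 4 fell, against a background of 41.4% (21.2% lower and 20.2% higher). With iBET, 2 of 4 fell, against 13.9% (7.54% lower and 6.38% higher). Without DMSO replicate 2 these counts were 3, 4 and 2. With the replicate number as a block they were 4, 4 and 2, and the background with iBET rose from 1806 to 3088 genes. None of the 4 passed with MM-401, where 0% of the tested genes did. In that comparison edgeR called 0 genes, and 1450 genes and none of the 4 enzymes had an unadjusted p under 0.05. DESeq2 called 297 genes, with none of the 4 enzymes among them. The 4 comparisons share the DMSO libraries and are not independent of each other. An exact permutation test of 2 against 2 libraries cannot go below p = 0.33, so the calls rest on the spread shared across all groups and genes.

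The inhibitors were then compared with each other, which leaves out the DMSO levels, although the DMSO pair still enters the shared spread. In these 6 pairs the time was the same, and each compound was given at its own IC50 and not at a matched concentration. EPZ5676 and MI-2-2 gave 0 calls among the 4 enzymes, in a pair where 0.0154% of the tested genes passed. The differences (EPZ5676 minus MI-2-2, log2 scale) were 2.90 for Mpo (95% interval 0.52 to 5.28, adjusted p = 0.583), 0.65 for Elane (-0.13 to 1.43, 0.785), 0.78 for Prtn3 (0.26 to 1.30, 0.438) and -0.83 for Ctsg (-1.62 to -0.04, 0.660). Mpo, Elane and Prtn3 were higher with EPZ5676 in both libraries and Ctsg was lower in both. These intervals leave room for sizeable differences between the 2 compounds.

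iBET differed from EPZ5676 in all 4 enzymes, and in 2 directions. Here 37.6% of the tested genes passed. Relative to EPZ5676, Mpo was lower with iBET by a log2 difference of -4.12 ± 1.10 (adjusted p = 0.0206) and Elane by -1.24 ± 0.34 (0.0236), while Prtn3 was higher by 0.99 ± 0.22 (0.0109) and Ctsg by 3.20 ± 0.37 (0.000705). That is a 9.19-fold difference in Ctsg, in the direction opposite to that of Elane. The Ctsg call passed in all 10 fits that left out 1 library. The others did not, since without any 1 of the 4 EPZ5676 and iBET libraries only 2 enzymes passed, and adjusted p reached 0.119 for Mpo, 0.123 for Elane and 0.0690 for Prtn3. Relative to MI-2-2, where 38.8% passed, Prtn3 was higher with iBET by 1.77 ± 0.23 (adjusted p = 0.00122) and Ctsg by 2.37 ± 0.36 (0.00219). Mpo (-1.22, interval -3.51 to 1.07, adjusted p = 0.355) and Elane (-0.58, interval -1.36 to 0.20, adjusted p = 0.202) did not pass in that pair, where Elane passed without iBET replicate 1 (-1.16, adjusted p = 0.0466).

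Relative to EPZ5676, where 33.3% of genes passed, MM-401 libraries held more Elane (log2 difference 1.38 ± 0.34, adjusted p = 0.0184), Prtn3 (1.22 ± 0.23, 0.00626) and Ctsg (3.03 ± 0.37, 0.00151), and Mpo did not pass (2.64 ± 1.02, 0.0789). Mpo passed there without either DMSO library (2.64 and 2.61, adjusted p = 0.00519 and 0.00501 without replicate 1 and 2), with the 4 libraries of the pair alone (0.00519), with DESeq2 (0.0221) and with the replicate number as a block (2.75, 0.0196). Elane was lost without any 1 of the 4 libraries of the pair (adjusted p 0.0674 to 0.103). All 4 were higher with MM-401 than with MI-2-2, in a pair with 35.7% called, at 5.54 ± 1.16 for Mpo (adjusted p = 0.00908), 2.03 ± 0.35 for Elane (0.00452), 2.00 ± 0.23 for Prtn3 (0.00145) and 2.20 ± 0.35 for Ctsg (0.00364). Mpo was lost there without MI-2-2 replicate 1 (5.002, adjusted p = 0.0638). Between MM-401 and iBET, with 11.4% called, the 2 enzymes Mpo (6.76 ± 1.24, adjusted p = 0.0144) and Elane (2.61 ± 0.36, 0.00544) were higher with MM-401. Mpo was lost without any 1 of the 4 libraries of that pair (adjusted p 0.0578 to 0.127). Prtn3 (0.22, interval -0.29 to 0.74, adjusted p = 0.561) and Ctsg (-0.17, interval -0.95 to 0.61, adjusted p = 0.792) did not pass.

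The balance of the 4 enzymes within a library does not depend on how libraries are scaled. Per kilobase of transcript, Elane was the gene with the highest level in both DMSO libraries among 23640 genes with a known length, and Ctsg was in that place in both iBET libraries. In DMSO the order by mean was Elane at 4167 ± 134 CPM per kilobase (SD, n = 2), Prtn3 at 2173 ± 395, Ctsg at 1929 ± 998 and Mpo at 946 ± 1139. The libraries of Prtn3, Ctsg and Mpo overlapped in part, so among these only Elane stood clear. With iBET the order was Ctsg at 3512 ± 105, Prtn3 at 1616 ± 214, Elane at 570 ± 266 and Mpo at 5.59 ± 0.40, with no overlap between neighbours.

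The ratio of Elane to Prtn3 per kilobase, for 2 genes that lie side by side, was 2.25 and 1.66 in DMSO and 1.93 and 1.76 with MM-401. It was 1.94 and 1.42 with EPZ5676, 1.89 and 1.69 with MI-2-2, and 0.429 and 0.261 with iBET. Thus both enzymes fell while keeping a similar ratio with EPZ5676 and MI-2-2, whereas with iBET the ratio was below that of the other 8 libraries. Ctsg over Elane was 0.618 and 0.3003 in DMSO, between 0.214 and 0.977 with MM-401, EPZ5676 and MI-2-2, and 4.73 and 8.997 with iBET. In percent of the 4 enzymes' sum, Ctsg made up 29.5% and 12.9% in DMSO, 33.4% and 35.2% with MM-401, 12.1% and 16.8% with EPZ5676, 31.2% and 37.0% with MI-2-2, and 58.6% and 65.0% with iBET. Elane made up 47.7% and 42.9% in DMSO and 12.4% and 7.22% with iBET, and 36.1% to 56.4% in the other 6 libraries. Mpo was 1.57% and 18.4% in DMSO, so the DMSO pair differed in the make-up of the set and not just in its sum, and 0.0867% and 0.111% with iBET.

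**Figure D3:**
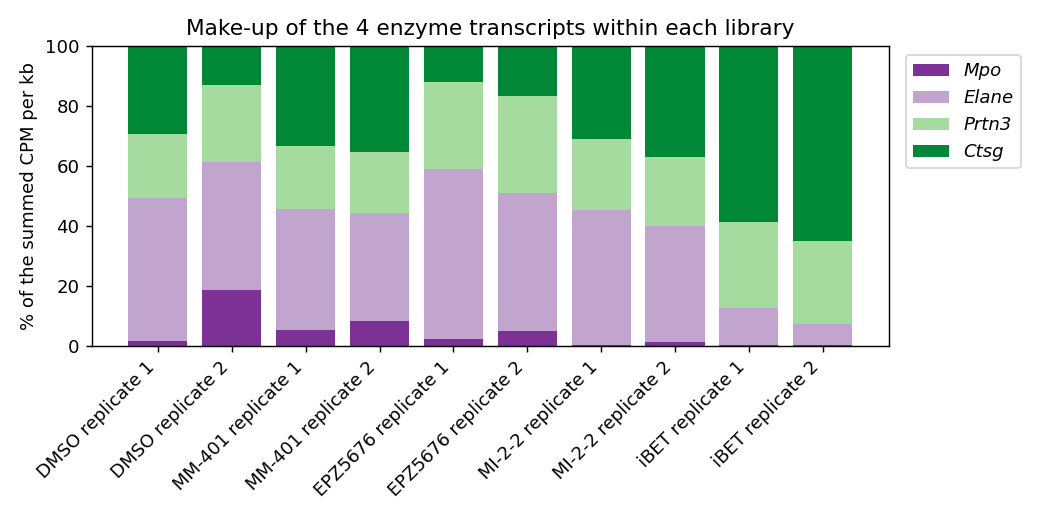
Share of each of the 4 enzymes in their summed CPM per kilobase, in percent, in each library. In the iBET libraries Ctsg takes 58.6% and 65.0% and Elane 12.4% and 7.22%, with Mpo too small to see. Among the other 8, DMSO replicate 2 has the largest share of Mpo (18.4%).

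The 10 libraries gave a Pearson r of log2 CPM of 0.879 between Mpo and Elane and of 0.743 between Prtn3 and Ctsg, against 0.558 for Elane with Prtn3, 0.517 for Mpo with Prtn3, 0.160 for Elane with Ctsg and 0.045 for Mpo with Ctsg. These are descriptions over 10 libraries that form 5 groups. The genes of the whole table with the pattern most like each enzyme, by the same r, were Gpd2 (0.970), Adam3 (0.970), Fam174b (0.969), Jade1 (0.961) and Zfp114 (0.961) for Mpo. For Elane they were Armcx4 (0.980), Poc1a (0.971), Strbp (0.960), Pdzd4 (0.958) and Nadk2 (0.955). For Prtn3 they were Xrcc6 (0.988), Hsp90aa1 (0.987), Rpl36al (0.984), Aars (0.980) and Eif3i (0.980). For Ctsg they were Cdk6 (0.983), Dnajc10 (0.980), Atxn3 (0.973), Grpel2 (0.972) and C87436 (0.972). No other granule gene was among them. Such an r takes no account of the size of a change. From DMSO to iBET the mean went from 2601 to 15.4 CPM for Mpo, and from 157 to 107 for Gpd2. For Fam174b it went from 1.46 to 0.038 CPM.

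Genes next to the enzymes on the chromosome were read for the same pattern. Near Mpo, Rnf43, a ubiquitin ligase, was at 20.4 CPM in DMSO and fell with EPZ5676 (-2.40, adjusted p = 0.0134), MI-2-2 (-2.77, 0.00749) and iBET (-2.42, 0.0306), as Mpo did. Mks1 fell with EPZ5676 (-1.38, adjusted p = 0.0120) and MI-2-2 (-1.13, 0.0230) and not with iBET (-0.28, 0.573), while Supt4a and Bzrap1, both nearer to Mpo than Rnf43, passed with none of the 4 inhibitors. Cfd, the complement serine protease that follows Elane, was at 2.62 CPM in DMSO and fell with EPZ5676 (-1.64, adjusted p = 0.0287), MI-2-2 (-2.71, 0.00472) and iBET (-2.79, 0.0134), as Elane did. Ptbp1, a splicing factor on the other side of Prtn3, fell with EPZ5676 (-0.72, adjusted p = 0.0212) and MI-2-2 (-0.95, 0.00677) and was at 0.00 (0.998) with iBET, while Med16, beyond Cfd, rose with iBET (0.45, adjusted p = 0.0333) and R3hdm4, further on, rose with EPZ5676 (1.92, 0.000523) and MI-2-2 (1.79, 0.000611). Mcpt8, a basophil protease beside Ctsg, fell with EPZ5676 (-1.35, adjusted p = 0.00210) and MI-2-2 (-0.87, 0.00988) and did not pass with iBET (0.54, 0.0956), from 9.34 CPM in DMSO. The neighbours Mcpt4, Mcpt9, Gzmd, Gzme and Gzmg had means of at most 0.0412 CPM. Of 14 genes related to the enzymes in sequence, 8 had no read in any library, and the summed level of all 14 was at most 15.9 CPM. How reads that match more than 1 of these genes were counted is not stated.

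The partners of the enzymes were read from 5 lists, each described by counts against DMSO beside the background above. That background, the share of all tested genes that passed, was 38.1% with EPZ5676, 41.4% with MI-2-2, 13.9% with iBET and 0% with MM-401. Of 15 other proteins of the primary granule and its lysosomal contents, 8 rose and 0 fell with EPZ5676 and with MI-2-2, 5 rose and 1 fell with iBET, and 0 passed with MM-401. The median log2 fold change was 0.62, 0.70, 0.70 and 0.35 in that order, against -0.06, -0.05, -0.04 and -0.01 over all tested genes. Rises outnumbered falls in this list, in comparisons where no member of the 4 enzymes rose. Lyz2, lysozyme, went from 282 and 261 CPM in DMSO to 3561 and 5388 with EPZ5676, 2625 and 3827 with MI-2-2 and 1022 and 1147 with iBET (log2 fold changes 4.04, 3.57 and 2.00, adjusted p = 0.000319, 0.000301 and 0.00500). Prss57, a further serine protease of the granule, was at 91.6 and 62.6 CPM in DMSO, 62.9 and 66.7 with EPZ5676, 62.0 and 43.2 with MI-2-2 and 9.06 and 7.65 with iBET, and fell with iBET (-3.21, adjusted p = 0.00107), while its adjusted p was 0.393 with EPZ5676 and 0.0776 with MI-2-2. The lysosomal protease Ctsb and the glycosidase Man2b1 rose with iBET and MI-2-2. Without DMSO replicate 2 the list's count with EPZ5676 was 5, and without EPZ5676 replicate 2 it was 2. With the replicate block the iBET count was 10 in place of 6.

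Of 18 tested genes for maturation, packaging and inhibition of the enzymes, 4 rose and 5 fell with EPZ5676, 6 rose and 4 fell with MI-2-2, 1 rose and 2 fell with iBET, and 0 passed with MM-401. Srgn, the serglycin core protein that holds the proteases in the granule, was at 1318 and 2190 CPM in DMSO and at 339 and 345, 481 and 305, and 429 and 477 with EPZ5676, MI-2-2 and iBET. It fell in all 3 comparisons (-2.36, -2.16 and -1.95, adjusted p = 0.00119, 0.00142 and 0.00759). Ctsc, the activating cathepsin C, rose with iBET (1.32, adjusted p = 0.0373), from 63.2 and 80.8 to 196 and 163 CPM. Lyst, the lysosomal trafficking regulator, rose with EPZ5676 (2.42, adjusted p = 0.00122) and MI-2-2 (2.57, 0.000941). Calr, a chaperone of the Mpo precursor, fell with EPZ5676 (-1.08, adjusted p = 0.0438) and was 1217 and 2661 CPM in the DMSO pair. Without DMSO replicate 2 the iBET count was 6 in place of 3, and with the replicate block it was 5, and the MI-2-2 count was 3 in place of 10 without MI-2-2 replicate 2.

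Haem is the cofactor of myeloperoxidase. Of the 8 enzymes of its synthesis, 1 rose and 3 fell with EPZ5676, 1 rose and 2 fell with MI-2-2, 0 rose and 2 fell with iBET, and 0 passed with MM-401. Over all tested genes 38.1%, 41.4%, 13.9% and 0% passed in the same order. With 8 genes, these counts are not read as a result about haem synthesis. Alas1, which catalyses the rate-limiting step, fell with iBET (-1.08, adjusted p = 0.0132), from 593 and 452 to 255 and 240 CPM. Cpox fell with all 3 (-1.13, -1.06 and -0.76, adjusted p = 0.00367, 0.00436 and 0.0387). Without DMSO replicate 2 the list's count with EPZ5676 was 1 and with iBET 4.

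Of 13 transcription factors with a known part in primary granule gene expression, 5 rose and 2 fell with EPZ5676, 5 rose and 3 fell with MI-2-2, 2 rose and 1 fell with iBET, and 0 passed with MM-401. Myb, which drives these genes in progenitors, was at 687 and 953 CPM in DMSO, 271 and 274 with EPZ5676, 240 and 227 with MI-2-2 and 561 and 605 with iBET. It fell with EPZ5676 (-1.59, adjusted p = 0.000787) and MI-2-2 (-1.81, 0.000611) and did not pass with iBET (-0.49, 0.0850). Cebpe, the factor of the step from primary to secondary granules, was at 107 and 108 CPM in DMSO, 315 and 461 with EPZ5676, 309 and 309 with MI-2-2, and 31.3 and 19.5 with iBET. It rose with EPZ5676 (1.85, adjusted p = 0.00154) and MI-2-2 (1.52, 0.00277) and fell with iBET (-2.08, 0.00437). Irf8, a monocyte lineage factor, rose with iBET (2.18, adjusted p = 0.0247), from 21.1 and 61.3 to 132 and 242 CPM. Spi1, which encodes PU.1, rose with EPZ5676 (1.03, adjusted p = 0.00402) and MI-2-2 (0.89, 0.00645). Klf4, a monocyte and macrophage factor, rose with EPZ5676 (2.69, adjusted p = 0.00225) and MI-2-2 (3.06, 0.00138), and Myc fell with both (-1.10, 0.0164 and -1.44, 0.00558). Cebpa fell with MI-2-2 (-0.702, adjusted p = 0.0305) and did not pass with EPZ5676 (-0.32, 0.2604). Cebpb rose with EPZ5676 (0.954, adjusted p = 0.01483) and MI-2-2 (1.126, 0.007191), as did Cebpd (1.265, 0.0008641 and 1.065, 0.001366). Cux1 rose with iBET (0.79, adjusted p = 0.0281). Gfi1, Runx1 and Cbfb did not pass with any inhibitor.

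Of 13 other genes of progenitors and promyelocytes, 3 rose and 3 fell with EPZ5676, 3 rose and 4 fell with MI-2-2, 0 rose and 5 fell with iBET, and 0 passed with MM-401. Clec12a, a myeloid inhibitory lectin receptor, was at 179 and 297 CPM in DMSO and 2.39 and 2.37 with iBET (-6.64, adjusted p = 0.000334), and at 257 to 343 with EPZ5676 and MI-2-2. Cst7, a cysteine protease inhibitor, fell with EPZ5676 (-1.54, adjusted p = 0.000537), MI-2-2 (-1.505, 0.000580) and iBET (-3.42, 0.000217). Fcnb, a ficolin of granulocytes, was at 1.09 and 6.09 CPM in DMSO, 129 and 132 with EPZ5676 (5.20, adjusted p = 0.00170), 24.6 and 22.5 with MI-2-2 (2.74, 0.0130) and 0.177 and 0 with iBET (adjusted p = 0.0198). Ms4a3, a marker of granulocyte and monocyte progenitors, did not pass with any inhibitor and was at 332 to 524 CPM with EPZ5676 and MI-2-2, 732 and 822 with iBET, 1123 and 1341 with MM-401 and 750 and 513 in DMSO. Nkg7, at 1.52 and 65.7 CPM in the DMSO pair, was higher in replicate 2, as Mpo was.

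**Figure D4:**
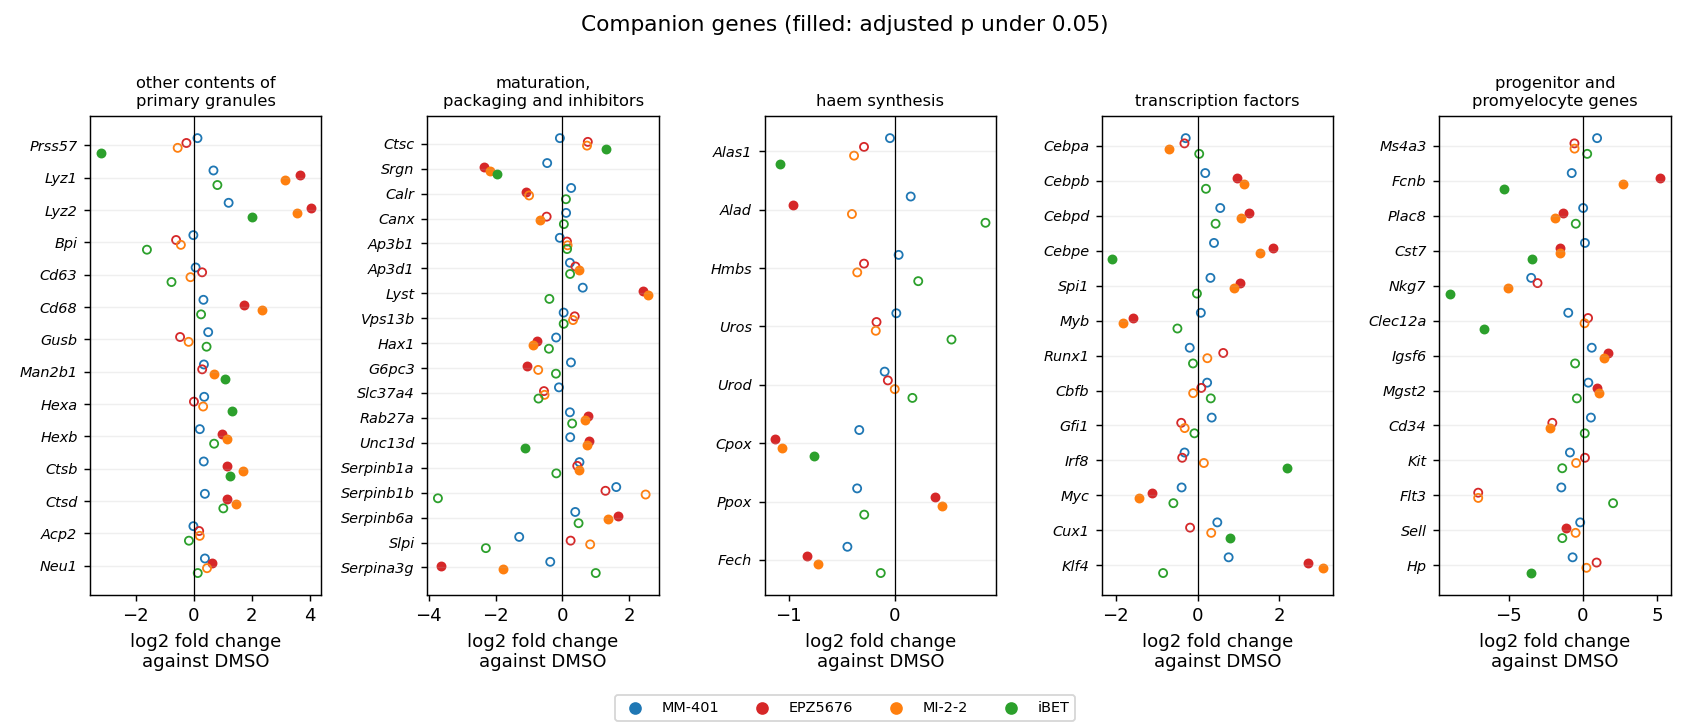
Log2 fold change against DMSO of tested genes of the 5 companion lists (1 list gene is not drawn), for the 4 inhibitors, filled where the adjusted p was under 0.05. Srgn lies to the left of 0 for EPZ5676, MI-2-2 and iBET, Lyz2 to the right for all 3, and Cebpe at 1.85, 1.52 and -2.08. Flt3 with EPZ5676 and MI-2-2 and Serpinb1b with iBET had no reads, so how far left those points sit is set by the fit and not measured.

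Markers of other stages moved beside the enzymes. All 8 of 8 genes of neutrophil secondary and tertiary granules rose with EPZ5676 and with MI-2-2, where 18.7% and 20.2% of tested genes rose. With iBET 0 rose and 3 fell, against 6.38% and 7.54% of tested genes, and 0 passed with MM-401, against 0%. Their summed level was 236 to 755 CPM in DMSO, 1074 to 1396 with MM-401, 20250 to 27970 with EPZ5676, 19750 to 20520 with MI-2-2 and 85.2 to 139 with iBET. Ltf (lactoferrin) averaged 17.1 CPM in DMSO and Camp (cathelicidin) 46.0, and they rose by 7.87 and 6.02 with EPZ5676 and by 8.06 and 4.89 with MI-2-2 (adjusted p = 0.000373, 0.000173, 0.000316 and 0.000179). Summed macrophage markers were 52.6 to 58.8 CPM in DMSO, 91.4 to 95.5 with MM-401, 273 to 368 with EPZ5676, 287 to 588 with MI-2-2 and 50.5 to 74.4 with iBET. The enzymes were thus lower in the same libraries in which secondary granule transcripts were higher with EPZ5676 and MI-2-2, and Mpo and Elane were lower with iBET without such a rise. Their part in the enzyme levels was not tested.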

How the data were processed

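RNA-seq libraries from MAF9 cells, 2 per treatment, were prepared by the authors with an Illumina TruSeq protocol. The authors deposited whole-number read counts per gene symbol, without normalization, for 24015 genes. The submitters' processing notes name TopHat2, Subread, DESeq and the build mm9, with no versions or roles. For strand and for reads that match several genes, settings were not stated. Groups and replicate numbers came from the sample titles.

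Counts were tested with the quasi-likelihood test of edgeR 4.0.16 in R 4.3.3, after filterByExpr and TMM, in 1 fit of all 10 libraries with a coefficient per treatment. P-values were adjusted by the Benjamini-Hochberg method over 12971 tested genes within each comparison (threshold 0.05). The SE was back-calculated from the log2 fold change and the test statistic, and the 95% intervals were built from that SE. DESeq2 1.42.0 was an alternative. The fit was tested on simulated data. The 4 genes, the gene lists and the tests were chosen with earlier results of these data known. Companion genes could be named from the lists, with priority to those that passed or were extreme, from the 3 nearest coding genes on each side, and from the 5 genes with the highest r, and not all of them are described. Of the listed genes, 1 enters its list's counts and is not reported here. Levels are TMM-normalized CPM, with a prior count of 2 for log2 values in r. Lengths are of the longest GENCODE M21 basic transcript, known for 98.4% of genes. Promoter windows are RefSeq's. Because the counts were made on mm9, no gene position is taken from them.

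Labels give the replicates as biological duplicates and do not say what else same-numbered libraries share. Deviations from the group means of same-numbered libraries correlated across the 10 pairs of groups at r = 0.278 to 0.666, so a fit with the replicate number as a block was run beside the main one. Alternatives were other scalings, filters, the 4 libraries of a comparison alone, and leaving out each library.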

Additional observations from a re-analysis of the deposited data

How the results depend on the processing

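Against DMSO, Elane, Prtn3 and Ctsg kept their direction under every alternative run, and so did Mpo with MI-2-2, EPZ5676 and iBET. Mpo with MM-401 did not, since it reversed without DMSO replicate 2. The limits are 2 libraries per group, a DMSO pair in which replicate 2 stood apart from all other libraries, and a shared spread. Where a call was lost or gained the cause was not tested, beyond the fewer libraries of some fits. Alone, the 4 libraries of a comparison lost Mpo with EPZ5676 (-3.28, adjusted p = 0.132), MI-2-2 (-6.18, 0.0643) and iBET (-7.42, 0.112), Ctsg with MI-2-2 (-1.505, 0.0859) and Elane with iBET (-2.89, 0.0981). That fit called 1174 genes with EPZ5676, 1147 with MI-2-2, 0 with iBET and 4223 between MM-401 and iBET. Its counts in the lists of other granule contents, maturation and packaging, haem synthesis, transcription factors and progenitor genes were 3, 2, 0, 4 and 3 with EPZ5676, 2, 2, 1, 5 and 2 with MI-2-2, and 0 in each with iBET.

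DESeq2 called 297 genes with MM-401 (1 other granule content, 1 transcription factor and 2 progenitor genes), 2829 with iBET (5 transcription factors), 146 between EPZ5676 and MI-2-2 and 2325 between MM-401 and iBET, and it called Ctsg with iBET (0.85, adjusted p = 0.0482). With the replicate number as a block, 3088 genes passed with iBET (10 other granule contents and 5 maturation genes), 2470 between MM-401 and iBET, and 4 between EPZ5676 and MI-2-2. Among the 4 enzymes the block changed the call of Mpo between MM-401 and EPZ5676 (2.75, adjusted p = 0.0196) and no other, a call that DESeq2 (0.0221) and the 4 libraries alone (0.00519) also made. Total-count scaling left 1 haem gene with iBET and 0 genes between EPZ5676 and MI-2-2, where no filter gave 7. It moved the median of all genes to -0.23 with EPZ5676 and -0.21 with MI-2-2 and the share of calls that rose to 34.7% and 37.1%, against 49.2% and 48.9%, and it set Elane in DMSO at 4321 CPM, Prtn3 with MM-401 at 2002, Ctsg with MM-401 at 3241 and Ctsg with iBET at 3631. DESeq2 size factors left the share at 53.1% and 51.9%.

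Leaving out each library in turn gave these ranges of log2 fold change against DMSO. Mpo lay between -1.53 and 2.09 with MM-401, -4.17 and -0.51 with EPZ5676, and -8.29 and -4.65 with iBET. Elane lay between -1.74 and -1.52 with EPZ5676. Ctsg lay between 0.23 and 1.36 with MM-401, -2.76 and -1.68 with EPZ5676, -1.92 and -0.84 with MI-2-2, and 0.41 and 1.53 with iBET. The number of enzymes called was 1 to 2 between MM-401 and iBET and 2 to 4 between iBET and EPZ5676, and the calls of Mpo and Elane lost or gained between other inhibitors are given with those pairs. Genes called against DMSO ranged over 0 to 1368 with MM-401, 2633 to 6808 with EPZ5676, 2772 to 7197 with MI-2-2 and 150 to 3720 with iBET. Between inhibitors they ranged over 0 to 111 (EPZ5676 and MI-2-2), 1556 to 6274 (MM-401 and EPZ5676), 1729 to 6535 (MM-401 and MI-2-2), 183 to 3207 (MM-401 and iBET), 2248 to 6755 (iBET and EPZ5676) and 2096 to 6782 (iBET and MI-2-2). In the lists, in the order above, they were 0 to 2, 0 to 3, 0 to 1, 0 to 2 and 0 to 6 with MM-401. With EPZ5676 the first 3 were 2 to 8, 5 to 11 and 1 to 4, with MI-2-2 maturation was 3 to 11 and progenitor 4 to 9, and with iBET they were 2 to 7, 0 to 6, 0 to 4, 1 to 6 and 2 to 8.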
